A study of Mus musculus with 4 samples.

Results

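Normal im-scWAT cells were compared before and after differentiation by ATAC-seq, an assay in which the Tn5 transposase inserts adapters into open chromatin and pileups of insertions are called as peaks. The comparison takes the library from day 8 (D8) and the library from day 0 (D0) of cells with intact Jmjd1a (Jmjd1a+/+, labelled WT), 1 library a side, out of 4 in the series. im-scWAT cells are stromal vascular cells of subcutaneous white fat from 5-week-old mice, immortalised with a retrovirus carrying SV40 large T antigen and selected with puromycin, so both days share the viral oncogene. D0 cells were taken before differentiation. D8 cells had 2 days of indomethacin, dexamethasone, IBMX, rosiglitazone, insulin and T3, then 6 days of insulin, T3 and rosiglitazone, a cocktail that drives preadipocytes towards beige adipocytes. The cells are an immortalised line, and the sources used here name no repeat culture. The other 2 libraries (HY) come from cells homozygous for a change that removes the demethylase activity of JMJD1A, and serve here only to look the same sites up in other libraries.

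The members are the peaks on chromosomes 1 to 19: 69781 at D0 and 40226 at D8, 110007 of the 239709 peaks of the series. A D8 peak that shares not even 1 bp with a D0 peak is a gained site, a D0 peak that shares none with a D8 peak is a lost site, and the rest are kept. There were 9824 gained sites, which is 24.4% of the D8 list (exact 95% interval 24.0% to 24.8%), and 42324 lost sites, which is 60.7% of the D0 list (60.3% to 61.0%). By a second rule, a site is kept when its summit lies inside a peak of the other list. That rule gave 10740 gained (26.7%) and 44557 lost sites (63.9%). The 916 D8 peaks and 2233 D0 peaks between both rules touch a peak of the other day but have their summit outside it. With 1 library a side there is no replicate and no test between days. All differences are between these libraries, and intervals cover counting error only.

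Differentiation of a preadipocyte is known as a change of enhancer use. Fibroblast-like precursors keep many enhancers open that carry sites for AP-1, TEAD and RUNX factors, and adipogenic hormones bring C/EBP factors and the glucocorticoid receptor to closed sites, followed by PPARG with its partner RXR. EBF and NFI factors act beside them in fat cells. Promoters of housekeeping genes stay open through such a change, often with CpG-rich sites for factors such as NRF1, while CTCF sites mark loop anchors.

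The sequences below show what gained, lost and kept sites look like. Each is the plus strand of mm9 around a summit, 5′ to 3′, and the capitals mark the match to the motif named. The first are gained: the strongest gained sites with an EBF and a PPAR:RXR match close to the summit (60 bases to each side of it), then the strongest gained sites with a C/EBP match near Pparg, the master regulator of adipogenesis, and near Cidec, which encodes a lipid droplet fusion protein (100 bases to each side).
Rftn2 intron, EBF, chr1:55230722-55230842: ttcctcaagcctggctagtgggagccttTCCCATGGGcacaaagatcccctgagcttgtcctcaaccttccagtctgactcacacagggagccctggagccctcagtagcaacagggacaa
Vps13d side, 16.8 kb downstream of the start, PPAR:RXR, chr4:144547758-144547878: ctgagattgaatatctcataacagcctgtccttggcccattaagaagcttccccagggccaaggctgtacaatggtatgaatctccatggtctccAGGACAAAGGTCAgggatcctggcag
Pparg, 0.254 kb upstream of an internal start, C/EBP, chr6:115371730-115371930: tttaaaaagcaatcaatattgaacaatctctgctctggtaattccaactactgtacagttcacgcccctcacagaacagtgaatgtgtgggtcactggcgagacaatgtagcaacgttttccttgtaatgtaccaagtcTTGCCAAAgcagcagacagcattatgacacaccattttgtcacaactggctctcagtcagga
Cidec, 0.266 kb upstream, C/EBP, chr6:113384924-113385124: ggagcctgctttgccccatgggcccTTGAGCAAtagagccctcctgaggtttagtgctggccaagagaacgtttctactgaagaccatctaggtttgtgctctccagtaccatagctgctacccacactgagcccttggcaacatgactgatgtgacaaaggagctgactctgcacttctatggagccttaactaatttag

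The next sequences are lost sites: the strongest with an AP-1 and the strongest with a RUNX match close to the summit, then sites near Acta2 (smooth muscle actin), Ctgf (a matricellular YAP target) and Dlk1 (a preadipocyte surface protein) chosen as the strongest lost site of each gene that holds all the motifs named.
Gas1 side, AP-1, chr13:60121314-60121434: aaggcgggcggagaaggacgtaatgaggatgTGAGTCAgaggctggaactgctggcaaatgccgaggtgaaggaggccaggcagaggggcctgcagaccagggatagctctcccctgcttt
Xcl1 side, RUNX, chr1:166923786-166923906: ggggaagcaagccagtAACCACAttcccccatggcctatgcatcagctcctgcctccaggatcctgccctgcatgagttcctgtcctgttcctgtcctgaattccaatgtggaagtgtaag
Acta2, 10.5 kb upstream, AP-1, TEAD and SRF, chr19:34340226-34340426: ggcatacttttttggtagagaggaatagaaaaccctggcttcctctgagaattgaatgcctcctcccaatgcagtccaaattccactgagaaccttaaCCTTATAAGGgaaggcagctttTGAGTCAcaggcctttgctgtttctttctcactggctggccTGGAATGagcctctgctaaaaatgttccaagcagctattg
Ctgf, 14.2 kb upstream, AP-1 and TEAD, chr10:24300904-24301104: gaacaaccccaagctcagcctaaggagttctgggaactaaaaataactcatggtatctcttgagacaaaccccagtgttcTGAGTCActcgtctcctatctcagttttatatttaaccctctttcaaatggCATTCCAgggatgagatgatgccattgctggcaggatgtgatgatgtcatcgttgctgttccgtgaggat
Dlk1, 34.8 kb upstream, AP-1 and TEAD, chr12:110656151-110656351: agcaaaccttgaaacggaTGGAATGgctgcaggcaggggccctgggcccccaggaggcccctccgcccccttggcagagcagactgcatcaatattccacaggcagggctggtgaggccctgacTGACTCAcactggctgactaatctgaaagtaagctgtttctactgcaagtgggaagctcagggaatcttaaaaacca

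The last sequences are kept promoter sites, the strongest with a CTCF and with an NRF1 match close to the summit.
Cggbp1 promoter, CTCF, chr16:64851664-64851784: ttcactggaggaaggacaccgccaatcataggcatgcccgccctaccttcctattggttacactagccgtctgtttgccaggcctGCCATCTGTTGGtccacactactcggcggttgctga
BC016423 promoter, NRF1, chr13:3610415-3610535: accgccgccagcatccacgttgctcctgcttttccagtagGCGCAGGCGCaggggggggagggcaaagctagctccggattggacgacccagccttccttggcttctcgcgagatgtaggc

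The lists differed in depth as well as in length. The genome-wide background, the pileup of tags at an average position, was 0.659 at D0 and 0.531 at D8, so D8 had 0.806 of the depth of D0. Peaks covered 24.9 Mb at D0 and 11.8 Mb at D8. Both lists reached down to a summit pileup of 5 tags, and the median was 15 tags at D0 and 14 at D8. The depth difference moves with the lost sites, and how much of the loss it carries was not tested beyond these values: 13177 of the lost sites (18.9% of all D0 peaks) had a pileup that, scaled to the D8 depth and lowered by 2 counting SDs, still reached the lowest pileup called at D8, which took at least 15 tags at D0. These are called clear lost sites below. The rule sets no condition on local background, so it does not show that each would have been called at D8. When the D0 list was shortened to its 40226 strongest peaks, 17248 (42.9%) were lost and 14261 D8 peaks (35.5%) were gained. In bulk cells, fewer cells with an open site and less opening per cell cannot be told apart.

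Sites found on 1 day were weaker than kept ones. The median summit pileup was 11 tags in gained and in lost sites, 16 in kept D8 peaks and 26 in kept D0 peaks. With the D8 list cut into 10 equal steps by -log10 q, 41.2% of the weakest step were gained and 2.91% of the strongest. The lost share ran from 89.0% in the weakest step of D0 peaks to 5.90% in the strongest. Both shares went down with each step in strength, and the lost share was above the gained share at every step.

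**Figure D1:**
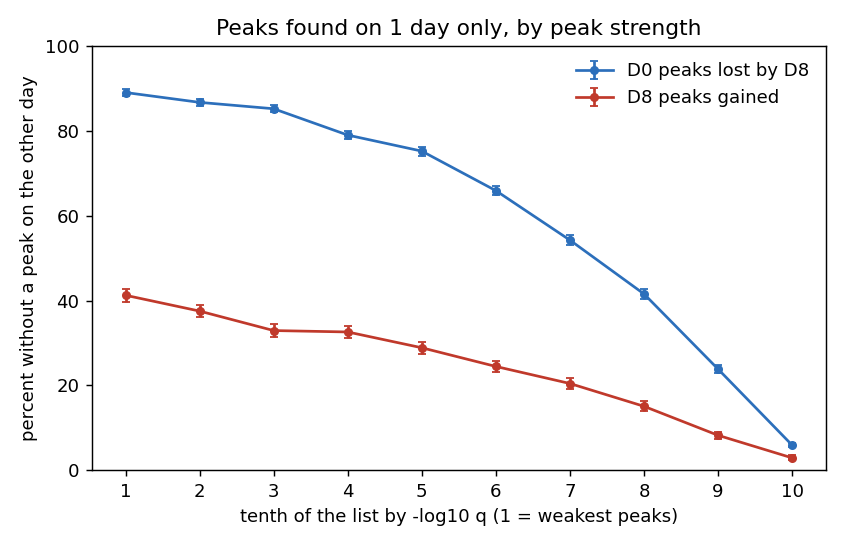
Percent of D8 peaks gained (red) and of D0 peaks lost (blue), by step of each list, ranked by -log10 q and cut into 10 equal steps, with exact 95% intervals for counting error. Both lines go down with strength, from 41.2% to 2.91% for gained and from 89.0% to 5.90% for lost peaks.

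Promoters held a larger share of kept sites than of gained or lost sites. A peak counted as a promoter peak when its centre lay in the window of 1000 bp before and 100 bp after any transcription start site (TSS). Promoters held 8.49% of gained sites (7.95% to 9.06%) and 7.83% of lost sites (7.58% to 8.09%), against 39.1% of kept D8 peaks (38.6% to 39.7%). Introns held 50.01% of gained, 44.3% of lost and 29.3% of kept D8 peaks. Intergenic positions held 36.4%, 43.9% and 26.1% in the same order. Gained sites were thus more often intronic and less often intergenic than lost sites, beyond their counting intervals. Exons and UTRs together took a small part of each class: 3′ UTRs held 1.91% of gained, 1.38% of lost and 1.05% of kept D8 peaks. Of the clear lost sites 9.98% lay at promoters (9.47% to 10.5%), 44.0% in introns and 42.1% between genes. That promoter share was above those of all lost and all gained sites, but no such limit was set on gained sites. With -log10 q of at least 5 in both lists promoters held 8.94% of gained and 8.33% of lost sites.

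**Figure D2:**
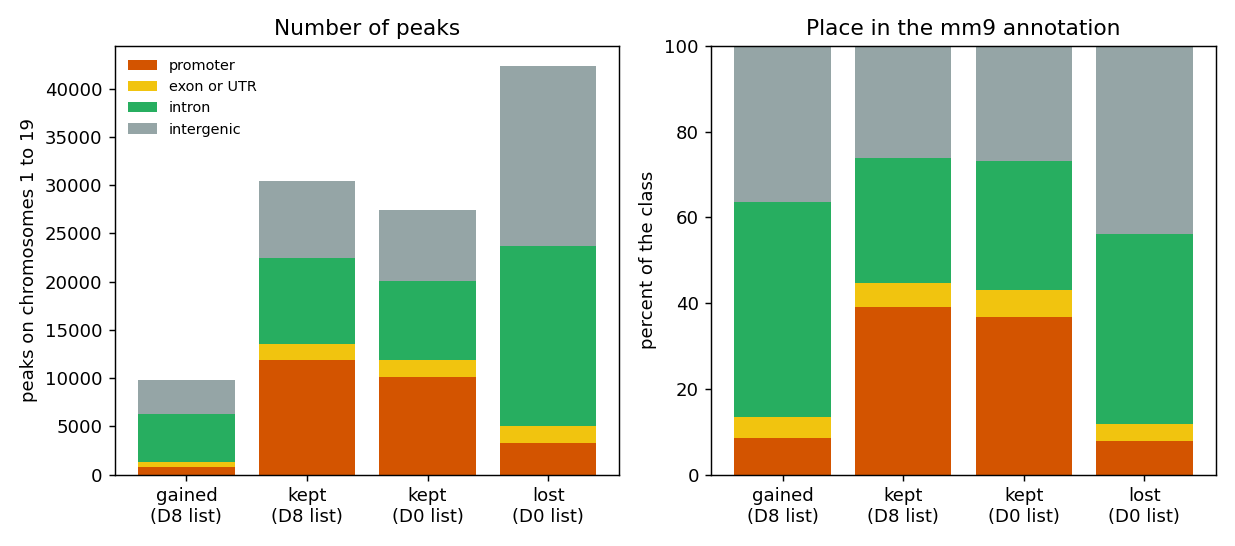
Left, number of peaks per class, and right, percent of each class, coloured by place in the mm9 annotation (promoter, exon or UTR, intron, intergenic). Promoters take 8.49% of gained and 7.83% of lost sites but 39.1% of kept D8 peaks.

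Gained sites also lay nearer to genes than lost sites. The median distance from a summit to the nearest protein-coding TSS was 14.2 kb for gained sites (quartiles 4.13 and 42.9 kb), 20.7 kb for lost sites (5.93 and 60.2 kb) and 2.27 kb for kept D8 peaks (0.099 and 21.9 kb). Within 1 kb of a TSS lay 12.6% of gained, 10.7% of lost and 45.7% of kept D8 peaks. Between 10 and 50 kb lay 36.4% of gained and 37.1% of lost sites, the fullest bin for both. Between 50 and 100 kb lay 11.4% of gained and 13.5% of lost sites, and between 100 and 500 kb 10.1% and 14.5%, so gained sites had the larger share in each bin up to 10 kb and lost sites in each bin beyond.

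**Figure D3:**
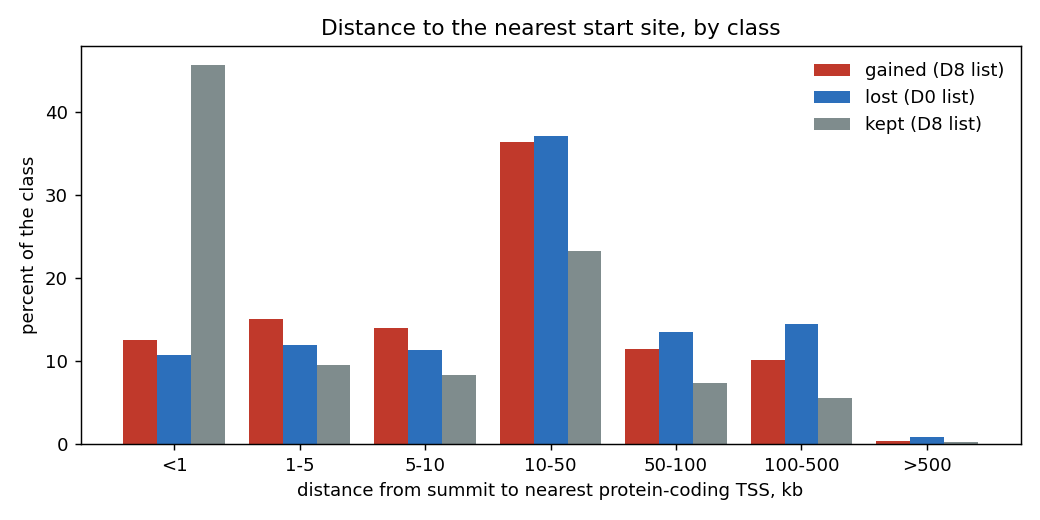
Percent of gained (red), lost (blue) and kept D8 (grey) peaks by distance from the summit to the nearest protein-coding TSS, in kb. Kept peaks stand out within 1 kb at 45.7%, and gained and lost sites share their fullest bin at 10 to 50 kb.

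No chromosome stood far from the rest. The gained share of D8 peaks lay between 21.8% (chromosome 11) and 28.4% (chromosome 12). The lost share of D0 peaks lay between 56.9% (chromosome 11) and 65.2% (chromosome 18).

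Around summits, base composition differed between classes. Within 100 bp of the summit there was a median GC of 50.2% in gained, 48.8% in lost and 56.7% in kept D8 sites. Outside promoters these medians were 49.8%, 48.8% and 52.7%, so the gap to kept sites narrowed without promoters, which had 64.7% GC and a median of 16 CpG where kept.

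Motif matches set gained and lost sites apart. A match means that the letters occur within 100 bp of the summit, on either strand, N being any base, and each share is given beside that of the same windows moved 2 kb away. The C/EBP motif TTGCNNAA was in 23.6% of gained sites (22.8% to 24.5%) against 7.45% of the moved windows. Lost sites had it in 9.01% (8.21% moved) and kept D8 sites in 10.0% (7.50% moved). C/EBP factors are the early and late drivers of adipogenesis. The match in gained sites was 3.17 times as frequent as in moved windows, against 1.10 times in lost sites.

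The other motifs that were most frequent in gained sites belong to fat cell and hormone-receptor factors. The EBF motif CCCNNGGGA was in 9.47% of gained sites (8.89% to 10.1%), 4.91% of lost and 7.19% of kept sites, with 2.67% to 2.77% in moved windows. The NFI motif (TTGGC, 5 bases of any kind, GCC) was in 2.25% of gained, 1.38% of lost and 1.87% of kept sites, against 0.509%, 0.423% and 0.428% of moved windows. Outside promoters gained and kept sites hardly differed in it, with 2.32% and 2.30%. The PPAR:RXR motif, the repeat AGGNCA with 1 base between its copies, was in 0.926% of gained sites (0.746% to 1.14%) and 0.276% of lost sites (0.229% to 0.331%), against 0.336% and 0.432% of their moved windows. The full palindrome of the glucocorticoid receptor (GNACA, 3 bases, TGTNC), which binds dexamethasone, was in 0.967% of gained (0.783% to 1.18%) and 0.345% of lost sites (0.291% to 0.406%). Moved windows had it in 0.366% and 0.350%. For both receptor motifs lost and kept sites lay at or under their moved windows.

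Lost sites carried the motifs of fibroblast-like cells. The AP-1 motif TGANTCA, bound by FOS and JUN pairs, was in 27.4% of lost sites (26.98% to 27.83%), 13.7% of kept and 7.92% of gained sites, with 5.70% to 5.99% in moved windows. In the clear lost sites the AP-1 share was 31.6% (30.8% to 32.4%), so it did not thin out when weak peaks were left aside. The TEAD motif CATTCCA, bound by the partners of YAP, was in 8.30% of lost, 3.53% of gained and 3.81% of kept sites (3.29%, 3.003% and 3.06% moved), and in 9.65% of the clear lost sites. The RUNX motif TGTGGTT was in 9.03% of lost sites against 4.96% of their moved windows. In gained sites it was in 3.59%, which is under the 5.55% of their moved windows. The SRF motif known as the CArG box was in 1.75% of lost (1.63% to 1.88%) and 0.936% of gained sites (0.756% to 1.15%), against 1.09% and 1.03% of their moved windows.

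CTCF and NRF1 matches followed another order. The CTCF motif (CCANNAG, 2 bases, GGC) was in 7.47% of lost, 6.71% of kept and 2.39% of gained sites, against 1.49%, 1.90% and 2.05% of moved windows. In the clear lost sites it was in 5.19%. The NRF1 motif (GCGCA, 1 base, GCGC) was in 3.61% of kept D8 sites, mostly promoters, and in 0.193% of gained and 0.224% of lost sites, against 0.109%, 0.102% and 0.0945% of moved windows. Outside promoters the AP-1 order was the same, with 28.5% of lost sites, 3703 of 18511 kept sites and 8.29% of gained sites, and so was the C/EBP order, with 24.4% of gained, 13.0% of kept and 9.27% of lost sites. The CTCF order turned there, with 8.84% of kept and 7.61% of lost sites. Matches of different motifs rarely shared bases: AP-1 and TEAD matches overlapped in 87 windows, and as a share of the rarer motif the overlap was at most 2.06% (C/EBP with the glucocorticoid receptor motif, 9 windows).

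**Figure D4:**
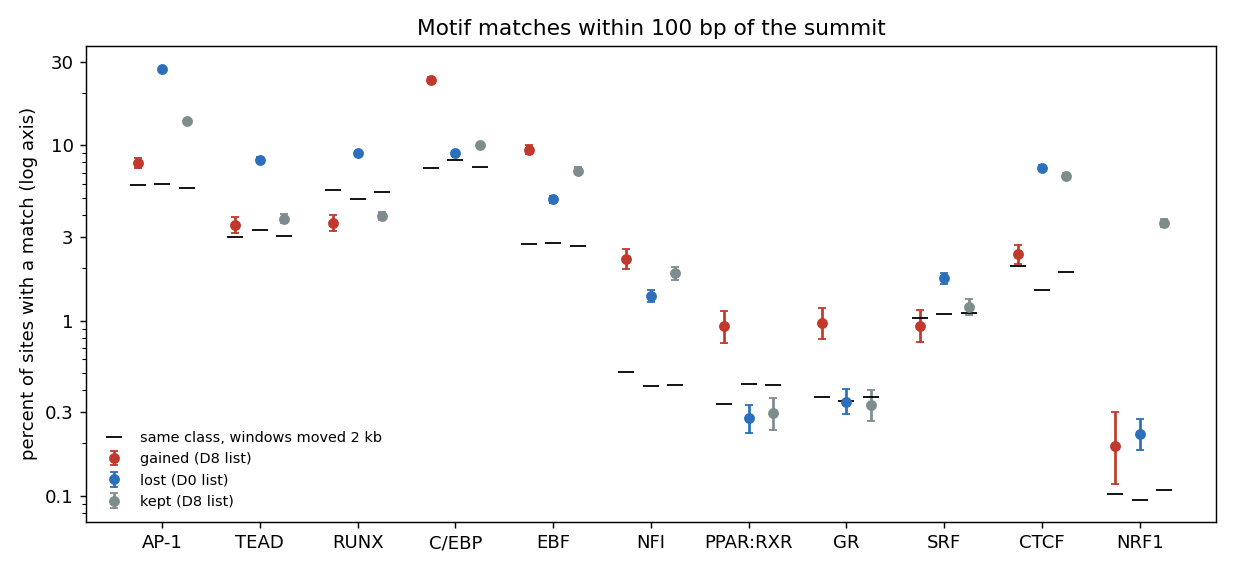
Percent of gained (red), lost (blue) and kept D8 (grey) sites with a match to each motif within 100 bp of the summit, on a log axis, with exact 95% intervals. Black ticks give the same windows moved 2 kb. GR is the glucocorticoid receptor. C/EBP is highest in gained sites (23.6%) and AP-1 in lost sites (27.4%).

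The strongest gained sites reached 46 to 69 tags at D8 where D0 had no peak. The first by -log10 q, at chr11:68546901-68547343 in an intron of Myh10, a non-muscle myosin heavy chain, held 54 tags with an enrichment of 18.97-fold over local background. In HY cells the same place had no peak at D0 and 56 tags at D8. The next, in an intron of Rftn2 at chr1:55230350-55230918, held 53 tags (17.6-fold). It is the site whose EBF match is printed above. Another, chr9:50643103-50643718, was the promoter of Alg9, a mannosyltransferase of protein glycosylation, with 69 tags (11.9-fold). Introns of Adcy5, an adenylyl cyclase, and of Pcx, the pyruvate carboxylase that feeds fatty acid synthesis, held gained sites of 61 tags each. Sites 52.7 kb upstream of Ppp2r5a, a regulatory subunit of phosphatase PP2A (66 tags), and 88.3 kb downstream of the start of Actl7b, an actin-like gene (46 tags), follow. In these 7 the HY D0 library had no peak and the HY D8 library had one, of 34 to 71 tags.

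The strongest lost sites were as high at D0 and mostly far from start sites. The first, chr13:60120943-60121857, lay 157 kb from the start of Gas1, a growth arrest protein, with 65 tags (16.3-fold) at D0. The site 150 kb from AI593442 held 61 tags. An intron of Gbf1, an exchange factor of the Golgi, held 56 tags at chr19:46289717-46290404, and so did an intron site shared by Dynlrb1, a dynein light chain, and Pigu, at chr2:155073737-155074420. The others lay 47.6 kb upstream of 1700012B15Rik (55 tags), 60.8 kb upstream of Ank, a pyrophosphate transporter (53 tags), 73.9 kb upstream of Cd1d1, which presents lipid antigens (57 tags), and 182 kb from Gm17350 (47 tags). None of these 8 is a promoter. The HY D0 library had a peak of 54 to 68 tags at each, and the HY D8 library still had peaks of 4 to 11 tags there, so at these places WT D8 differs from HY D8 by a weak peak.

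Few promoters were open on 1 day only. A gene's promoter was counted as open where a peak overlapped the window of any of its start sites. Of 21418 protein-coding genes, 11001 had an open promoter on both days, 8799 on neither, 260 at D8 only (1.21%) and 1358 at D0 only (6.34%). Single peaks at promoters of protein-coding genes numbered 743 gained and 2809 lost. The strongest gained promoter peaks after Alg9 were at Dazap1, an RNA-binding protein (55 tags), Nipsnap1, a mitochondrial protein (43 tags), Qsox1, a sulfhydryl oxidase (44 tags), Adig, which encodes adipogenin (49 tags), Aldh1a7, an aldehyde dehydrogenase (32 tags), Cd36, the fatty acid translocase (41 tags), Lrrc27 (40 tags), Grn, which encodes progranulin (50 tags), and Map3k1, a stress kinase (35 tags). Of these 10, the HY D0 library had a weaker peak at Nipsnap1 (6 tags), Aldh1a7 (8 tags) and Map3k1 (14 tags) and none at the other 7. The HY D8 library had a peak of 26 to 65 tags at all 10.

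Lost promoter peaks were led by Trafd1, a regulator of innate immune signalling, with 58 tags at D0. Tnni2, the fast muscle troponin I, had a peak of 38 tags 0.993 kb upstream, at the edge of the window. Transcription factor promoters among them were Foxs1 (50 tags) and Wt1, the Wilms tumour factor of mesothelial cells (34 tags). Slc2a10, a facilitative sugar transporter, had 39 tags, Myo10, an unconventional myosin of filopodia, 38 tags, and Apod, a lipocalin, 45 tags. Cdk15 (38 tags), Clip4 (31 tags) and Fryl (34 tags) complete the 10. In the HY D8 library 5 of these places still had a peak, at 8 to 15 tags.

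Losses outnumbered gains around genes. Within 50 kb of a start site, 8790 of the 21418 genes had a gained site (41.0%), 16663 had a lost site (77.8%) and 1710 had more gained than lost sites (7.98%). These counts are not per length, and a gene with many start sites or dense neighbours collects more sites. Over all genes 20.3% of the changed sites, gained plus lost, were gained. That share is the level the gene lists below are read against. With the D0 list shortened it was 49.1%.

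The 10 genes with the most gained sites had 11 to 14 of them. Cd36 had 13 gained sites, no lost and no kept site within 50 kb, the pileups summing to 302 tags. Its sites at 2 of its annotated starts were promoter peaks, at chr5:17341426-17341962 with 40 tags and at chr5:17355453-17355720 with 41 tags, and 7 of the 13 formed a cluster of 14.3 kb. C/EBP matches stood in 4 of the 13, at 32, 20, 17 and 24 tags. Fabp12, a fatty acid binding protein gene beside Fabp4, had a promoter open at D8 only and 14 gained sites against 1 lost, 7 of them within 50 kb of Fabp4 too. Abcg1, a cholesterol exporter, had 11 gained and 3 lost sites and a promoter open at D8 only. Mtus1 had 12 gained and 4 lost sites. Further genes were Sik3, a salt-inducible kinase (13 gained, 16 lost), Egfl7 (11 and 11), Rreb1 (11 and 9), Tspan18 (11 and 10) and Tcf7l1, a transcription factor of Wnt signalling (11 and 10).

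The 10 genes with the most lost sites had 22 to 33 of them. Kalrn, a guanine nucleotide exchange factor, had 33 lost sites against 3 gained. Frmd4a, a polarity scaffold, had 27 and 3. Arhgap26 and Dlc1, both GTPase-activating proteins, had 25 and 9 and 22 and 9. Arhgef10l, an exchange factor too, had 23 and 1 and a promoter open at D0 only. Tns1 and Tns3, tensins of focal adhesions, had 23 and 5 and 22 and 0. Sept9, a septin, had 22 and 8, the kinase Mast4 22 and 6, and Pde4d, a cAMP phosphodiesterase, 23 and 3. At Tns3 the 22 lost sites held 6 to 30 tags at D0.

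Most groups of changed sites held a single site. Joining sites of a class no more than 10 kb apart gave 7635 gained groups, of which 6028 were single sites and 407 had 3 or more sites and held 14.2% of gained sites, and 28003 lost groups, of which 18881 were single sites and 3168 had 3 or more and held 27.3% of lost sites. The largest gained run had 8 sites over 30.4 kb nearest to Ccrn4l, the circadian deadenylase nocturnin. Runs of 7 lay at Cd36, at Fabp12, at Sesn2, a stress-induced sestrin, and over Plin4 and Plin5, perilipins of the lipid droplet, with their neighbours Lrg1 and Sema6b. The Plin4 and Plin5 run, chr17:56240773-56264537, had 243 tags in 23.8 kb and no lost site. A run of 6 at chr9:3028534-3037270 spanned predicted genes (Gm10106, Gm10715, Gm10716 and Gm17535) at the start of the chromosome and had 462 tags. The mappability of this stretch was not tested. The largest lost runs were 17 sites over 51.0 kb at Gm20388, 14 at Arhgef10l and Rcc2, 13 at Lrp1 and Stat6, 13 nearest Vps8, 12 nearest Map4k3 and 11 at Vmp1.

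Adipogenic transcription factors had open promoters before differentiation and changed around them. Of 22 genes, 18 had an open promoter on both days, against 51.4% of all genes. At D0 only 3 were open (Klf15, Zfp423 and Ebf2, with 13, 23 and 17 tags), against 6.34%, and none at D8 only, against 1.21%. The Zfp423 peak is a kept one whose D8 partner lay outside the window. A gained site lay near 19, or 86.4% against 41.0% of all genes. A lost site lay near 21, or 95.5% against 77.8%, and 42.0% of the changed sites were gained. Lists of other kinds were above 41.0% too. A gained site lay near 10 of 13 AP-1, 18 of 24 ribosomal protein, 15 of 20 contractile and 16 of 25 cell cycle genes. It lay near 2 of 13 neuron, 4 of 15 endothelial, 5 of 16 muscle and 6 of 15 hepatocyte markers, all under 41.0%. A share above that of all genes is thus not particular to adipogenic factors. Nfia had 8 gained and 7 lost sites, Zfp423 7 and 10, and Rxra, which encodes the partner of PPARG, 6 and 9. Zbtb16 had 4 and 0. Pparg itself, chosen for its role, had 4 gained and 7 lost sites. Its gained sites of 20, 37 and 34 tags lay from 0.93 kb upstream to 2.49 kb downstream of an internal start and each had a C/EBP match, the second being the one printed above. The other start was open on both days, with 17 tags at D0 and 18 at D8. Its lost sites had 6 to 22 tags. The promoter peak of Cebpa, whose product acts with PPARG, held 61 tags at D0 and 57 at D8.

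Fatty acid and triglyceride synthesis had more gained than lost sites. Of 20 genes, 19 had a gained site, against 41.0% of all genes, 12 had more gained than lost sites, against 7.98%, and 61.4% of their changed sites were gained, with 67.8% within 10 kb and 47.7% within 100 kb. Scd1, the stearoyl-CoA desaturase, had 10 gained sites and 1 lost. Its sites 8.69 and 14.8 kb upstream held 52 and 47 tags at D8, and its promoter peak was kept at 56 and 53 tags. Dgat2, which makes triglyceride, had 8 gained and 0 lost, Gpam 6 and 3. Agpat2 and Pcx had 10 gained sites each beside 8 and 7 lost ones, Acacb had 5 and 6, and Scd2 1 and 5. Promoters of Gpd1, the glycerol phosphate dehydrogenase (24 tags), and Pck1, which supplies glycerol backbone (10 tags), were open at D8 only. Elovl6, a fatty acid elongase, went the other way, with 24 tags at its promoter at D0 and 0 gained sites.

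Lipid droplet and lipolysis genes had 6 D8-only promoters among 20 genes, against 1.21% of all genes: Plin1 (28 tags), Plin5 (23 tags), Cidec (42 tags), Cidea (9 tags), G0s2 (34 tags) and Aqp7 (39 tags), which encode coat, fusion, lipase inhibitor and glycerol channel proteins. The Aqp7 peak is a kept one whose D0 partner lay outside the window. None had a D0-only promoter. Gained sites made up 52.1% of the changed ones. Plin1 had 8 gained and 4 lost sites, and 4 of the gained had a C/EBP match. Mgll, the monoglyceride lipase, had 6 and 9, and Pnpla2, the main triglyceride lipase, 7 and 7. The adrenergic receptor Adrb3 had 1 gained and 9 lost sites and no open promoter on either day.

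Fatty acid uptake and binding genes had a gained share of 47.9%. Of 18 promoters, 3 were open at D8 only, those of Cd36, Fabp4 and Apoc1, against 1.21% of all genes. Slc27a2, a fatty acid transport protein, was open at D0 only (7 tags), as were 6.34% of all genes. The Fabp4 promoter, of the fat cell fatty acid binding protein, held 46 tags at D8 and had no peak at D0, and the gene had 8 gained sites against 1 lost. Lpl, the lipoprotein lipase, had 9 gained and 0 lost sites, of 7 to 38 tags, and its kept promoter peak held 27 tags at D0 and 53 at D8. Lrp1, a lipoprotein receptor also known from fibroblasts, had 3 gained and 19 lost sites.

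Adipokine genes had a gained share of 40%, and of 61.3% within 10 kb, where there were 31 changed sites. The promoter of Adipoq, which encodes adiponectin, had no peak at D0 and 26 tags at D8, with gained sites of 26 tags 2.01 kb upstream and 19 tags 2.96 kb downstream. It also had 6 lost sites of 7 to 15 tags. Rbp4, the retinol carrier, opened at D8 only too (11 tags). Lep, which encodes leptin, and Cfd, which encodes adipsin, had no open promoter on either day, with 2 gained and 5 lost sites and 6 gained and 7 lost sites.

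Thermogenic genes had a gained share of 45.0%, and 12 of 22 genes had no open promoter on either day, against 41.1% of all genes. Ucp1 was among them. Ucp1, the uncoupling protein of beige and brown fat, had 5 gained sites and 0 lost: 7, 10 and 14 tags between 4.98 and 2.50 kb upstream, 13 tags 19.7 kb downstream with a C/EBP match, and 24 tags 42.9 kb downstream, which is at another promoter. A site 11.7 kb upstream was kept at 27 and 33 tags. Ppargc1a, the coactivator of mitochondrial genes, had a promoter open at D8 only (14 tags). Kcnk3, a potassium channel of fat cells, had 10 gained sites and 1 lost, 4 of them with an EBF match. Ppara had 9 gained sites of 12 to 34 tags and 3 lost. Acot11 and Ckb, a thioesterase and a creatine kinase of fat thermogenesis, had 0 and 1 gained against 10 and 9 lost sites, and promoters open at D0 only, as had Lhx8 (7 tags).

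Mitochondrial genes had open promoters on both days. This held for all 27 genes of oxidative phosphorylation and the TCA cycle and for 22 of 23 of fatty acid oxidation, against 51.4% of all genes. In the latter list Cpt1b, the muscle-type carnitine palmitoyltransferase, was open at D8 only (27 tags). Gained shares were 34.8% and 41.5%. Pdk4, which spares glucose for fat burning, had 7 gained and 0 lost sites. Acaa1b, of peroxisomal oxidation, had 5 gained sites. Acads, a short-chain dehydrogenase, had 2 and 6. Cs, the citrate synthase, had 4 gained and 0 lost.

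Insulin signalling and glucose transport genes had 20 of 21 promoters open on both days, against 51.4% of all genes, and a gained share of 41.3%. Insr, the insulin receptor, had 7 gained and 2 lost sites and Tusc5, a trafficking protein of the glucose transporter GLUT4, 7 and 3. Slc2a4, the GLUT4 gene, had 2 and 3. Akt1, the kinase, had 3 and 12, and Socs3, a feedback inhibitor, 0 gained and 12 lost.

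Collagens and matrix genes had a gained share of 17.7%, near the 20.3% of all genes. None of the 24 had more gained than lost sites, against 7.98% of all genes. Of their promoters 4 were open at D0 only, against 6.34% of all genes: Col3a1 (24 tags), Fbn1 (47 tags, a kept peak), Dcn (9 tags) and Mmp2 (15 tags). Col1a2, a chain of type I collagen, had 0 gained and 13 lost sites of 8 to 47 tags, and Dcn, the decorin gene, 0 and 6. For contractile and focal adhesion genes the share was 14.2%, and each of the 20 had a lost site, against 77.8% of all genes. The Cnn2 promoter was open at D0 only, by a weak call. Its 33 tags were 2.12-fold over local background with a -log10 q of 2.53, and neither HY library had a peak there. Myh9, the non-muscle myosin, had 4 and 20, Mkl1, the actin-sensing cofactor of SRF, 1 and 18, and Cald1, caldesmon, 1 and 15. A clear lost site lay near 23 of 24 matrix genes and 18 of 20 contractile genes, against 49.4% of all genes. Other lists were above 49.4% too, with 12 of 13 AP-1 genes and 19 of 23 Wnt genes. Insulin signalling had 16 of 21 and ribosomal protein genes 18 of 24. Hepatocyte (5 of 15), muscle (7 of 16) and endothelial markers (7 of 15) lay below it. So did thermogenesis (10 of 22) and adipokine genes (7 of 15). A share above that of all genes was thus not particular to matrix and contractile genes.

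YAP and TEAD genes and AP-1 genes had gained shares of 18.8% each, close to that of all genes. Within 10 kb the AP-1 genes had 35% against 22.2% of all genes, from 20 changed sites. Every one of the 15 and 13 genes had a lost site, against 77.8% of all genes, and their medians were 7 and 5 lost sites against 2 for all genes. Ctgf and Cyr61, textbook YAP targets, had 0 gained and 9 lost sites each. Ankrd1, another target, had a promoter of 33 tags at D0 only, and Ccnd1, cyclin D1, one of 21 tags. Junb had 0 gained and 7 lost sites, Fosl1 1 and 9, and the repressor Bach2 5 and 14. Promoters were open on both days in 13 of the 15 and 12 of the 13 genes, against 51.4% of all genes, and Batf had none open.

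Signalling lists were mixed. TGF-beta and BMP genes had a gained share of 31.2%, with 10 gained and 8 lost sites at Tgfbr3, the betaglycan receptor, and 0 and 9 at Smad7, an inhibitor. Wnt genes had 25.3%, and 20.5% within 10 kb, with Tcf7l1 at 11 and 10, Wnt5b at 10 and 6, Fzd4 at 7 and 3 and Dkk3, a secreted antagonist, at 1 and 10. Promoters of Wnt2, Dkk2 and Sfrp2 were open at D0 only (13, 8 and 11 tags) and that of Wnt9a at D8 only (14 tags). Cell cycle genes had 21.8%, and 12.5% within 10 kb, with all 25 promoters open on both days, against 51.4% of all genes, and Top2a, the mitotic topoisomerase, had 1 gained and 13 lost sites. Ribosomal protein genes, with 24 of 24 promoters open on both days, had 24.2%.

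Promoters of preadipocyte and fat cell markers differed between days in opposite directions. Of 21 preadipocyte markers, 9 had a promoter open at D0 only, against 6.34% of all genes, and none at D8 only: Cd34, Ly6a, Thy1, Dlk1, Cd55, Dact2, Gli1, Eng and Prrx1, with 7 to 28 tags. The peaks of Cd34, Dlk1, Cd55, Eng and Dact2 had 7 to 13 tags, under the 15 that a clear lost site took. Another 8 of the 21 were open on both days, against 51.4% of all genes, and 4 on neither. The gained share was 10.2%, and 4.26% within 10 kb, against 20.3% and 22.2% for all genes. None of the 21 had more gained than lost sites, against 7.98% of all genes. Dlk1 had 0 gained and 9 lost sites, the largest of 50 tags being the one printed above. Of 18 mature adipocyte markers, each also in a list above, 7 had a promoter open at D8 only, against 1.21% of all genes, and none at D0 only, and the gained share was 57.7%. Lep, Cfd and Adrb3 had no open promoter. Markers of other cells differed by list. No hepatocyte marker of 15 and 1 macrophage or leukocyte marker of 16 (Lyz2, 6 tags at D0) had an open promoter. Of all genes 41.1% had none on either day. Endothelial markers had 4 of 15 open at D0 only (Pecam1, Kdr, Tek and Vwf, with 9 to 23 tags), 3 open on both days and 8 on neither, among them Cdh5. Among neuron markers 5 of 13 were open at D0 only, with 8 to 14 tags, 2 on both days and 6 on neither. Skeletal muscle markers had 2 of 16 open at D8 only (Acta1 and Des, 10 tags each) and 2 at D0 only, with Myod1 and Myog closed. Their gained shares were 27.1% for hepatocyte, 29.3% for leukocyte, 18.1% for endothelial, 7.27% for neuron and 29.1% for muscle markers. With -log10 q of at least 5 in both lists the leukocyte share was 17.5%, under the 19.6% of all genes.

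**Figure D5:**
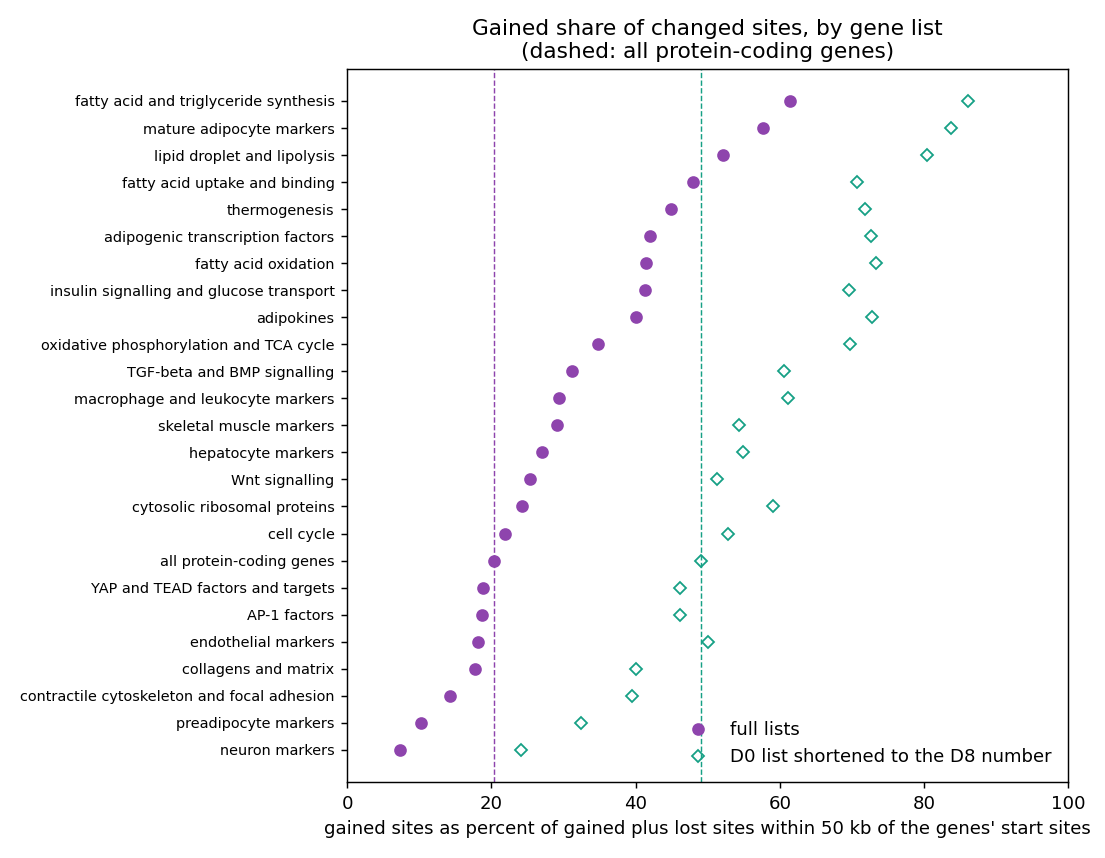
Gained sites as percent of gained plus lost sites within 50 kb of the start sites of each gene list, with the full lists (filled) and with the D0 list shortened to the D8 number (open). Dashed lines give all protein-coding genes, 20.3% and 49.1%. Lipid lists lie to the right of the lines and preadipocyte and contractile lists to the left under both.

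Within 10 kb the gained share was 52.8% for adipogenic factors, 70.7% for lipid droplet, 58% for fatty acid uptake, 56.7% for fatty acid oxidation and 72.1% for mature adipocyte genes, against 22.2% of all genes. Shortening the D0 list moved every gained share up. Fatty acid and triglyceride synthesis went to 86.0%, lipid droplets to 80.4%, thermogenesis to 71.8% and adipogenic factors to 72.7%, against 49.1% for all genes. Collagens and matrix went to 40%, contractile genes to 39.5% and preadipocyte markers to 32.4%. Endothelial markers changed side, from 18.1% under the 20.3% of all genes to 50% over 49.1%.

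The share of gained sites with a C/EBP match differed between gene lists. Of 90 gained sites near mature adipocyte markers 32 had a C/EBP match (35.6%), against 22.8% of gained sites near any gene. Of 66 lost sites near the same genes 9 had one. A PPAR:RXR match was in 1 of the 90. In other fat lists the C/EBP share of gained sites ran from 19.2% (adipogenic factors) to 35.3% (adipokines). It was 22.4% for thermogenesis and 23.4% for fatty acid and triglyceride synthesis. Among lists of other kinds it was 5.88% for leukocyte markers, 34.1% for TGF-beta and BMP genes and 46.7% for endothelial markers (15 gained sites). Near preadipocyte markers 28 of 123 lost sites had an AP-1 match (22.8%), which is not above the 25.6% of lost sites near any gene.

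Kept sites changed in height too. In 24231 pairs, 1 D8 peak overlapped 1 D0 peak and neither overlapped another, and the D8 to D0 ratio of summit pileups was scaled by depth. The median log2 ratio was -0.15, and by place it was -0.03 at promoters, -0.27 in introns and -0.34 between genes. At least 2-fold higher at D8 were 1246 pairs (5.14%) and at least 2-fold lower 3610 (14.9%). With fold enrichment in place of pileup these counts were 327 and 1533. Scaled by the median ratio of the kept pairs in place of depth, they were 1687 and 2861. Among promoter pairs 1.80% were higher and 5.45% lower, and among intergenic pairs 7.04% and 22.1%. Summits stayed within 50 bp in 60.9% of pairs.

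The largest increases among pairs with at least 20 tags on one day started from peaks near the calling limit. The site 8.52 kb upstream of Pnpla5, a patatin-like lipase gene, went from 7 tags at D0 to 65 at D8, a scaled ratio of 11.5 (5.29 to 29.8). Sites upstream of Psma1, a proteasome subunit, and in an intron of Nrf1, a mitochondrial and housekeeping regulator, went from 6 to 49 tags each, a ratio of 10.1. An intron of 1110038D17Rik and the promoter of Svil, which encodes supervillin, an actin-binding protein, went from 6 to 45. The largest decreases ended there. Near Adra1b, an adrenergic receptor, 50 tags became 5 (ratio 0.124, 0.0386 to 0.309), near Crabp1, a retinoic acid binder, 69 became 7, near Fstl4 and Ptprb 49 became 5 each, and at the Acta2 promoter, 0.003 kb from the start, 57 became 6 (0.131, 0.046 to 0.302). The sequence of a lost site upstream of Acta2 stands above.

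The strongest kept pairs, ranked by the lower of both -log10 q values, were high on both days. They lay between genes nearest 1700019M22Rik (150 and 161 tags), Gm5614 (134 and 160) and 1700012B15Rik (119 and 153) and in an intron of Chl1 (109 tags at D0, ratio 1.38), with summits 0 to 5 bp apart. Their scaled ratios were 1.33 to 1.60, each with a counting interval above 1, and none is a promoter. Mappability of these places was not tested.

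In HY cells most of the same sites were found on the same day. Of gained sites, 73.5% (72.7% to 74.4%) overlapped an HY D8 peak and 14.8% an HY D0 peak. In HY D8 and not in HY D0 were 63.0%, and in neither 22.1%. Of lost sites, 78.0% (77.6% to 78.4%) overlapped an HY D0 peak and 17.6% an HY D8 peak, and 61.5% were in HY D0 and not in HY D8. Of kept D8 peaks 87.7% were in both HY libraries. The HY lists gave 12202 gained sites, 25.5% of the HY D8 list, and 43604 lost sites, 57.3% of the HY D0 list. HY cells are another genotype, so these are not replicates.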

How the data were processed

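ATAC-seq was run on nuclei of im-scWAT cells, 1 library per genotype and day. Per the study's methods, the authors trimmed reads, aligned them to mm9, removed duplicates and called peaks. A separate peak list was deposited for each library. Bowtie2, SAMtools, Picard and deepTools are named in the submitters' processing notes, and Trimmomatic and MACS3 in the methods. Versions, the calling threshold and a shift for the Tn5 offset are not given in the sources used here. The deposited values per peak are a fold enrichment over local background (a ratio), -log10 p and -log10 q, and an offset that gives the summit. They were not normalised between libraries, and the deposited score column was used for no result.

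The summit pileup (whole tags) and the local background were solved from the deposited fold and -log10 p with a tolerance of 0.002, which succeeded for 100% of peaks. The lowest background gave the relative depth. The number of reads is unknown. Peaks were placed on NCBIM37 (mm9) with GENCODE M1, and coordinates are 1-based. The overlap of 1 bp follows the definition of this comparison. The study's methods use more than 50%, tried as an alternative. Intervals are exact (Clopper-Pearson) at 95%. Python 3.11.15 was used with NumPy 2.4.6, pandas 2.3.3, SciPy 1.17.1 and pysam 0.24.0, and the solving and class rules were tested on simulated data.

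The 24 lists name 458 genes, of which 450 matched on chromosomes 1 to 19 (3 through a RefSeq synonym). Comparison, rules and lists were chosen with earlier results of these data known. Named were the 8 gained and 8 lost sites and the 10 gained and 10 lost promoter peaks with the highest -log10 q, the 10 genes with the most gained and with the most lost sites, the 6 largest runs of each class, the 4 strongest kept pairs, the 5 highest and 5 lowest ratios, and list members with the most changed sites or a promoter open on 1 day. Pparg, Cebpa, Lep, Cfd, Adrb3, Slc2a4, Ucp1 and the other genes whose sites are shown by sequence were added for their role, with values seen. The largest gap joined in a run was 10 kb. A few items that the rule names are not reported here.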

Additional observations from a re-analysis of the deposited data

Results flagged for a closer look

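Chromosome X was outside the comparison and also held changed peaks. Of 883 D8 peaks there 191 were gained (21.6%), and of 1560 D0 peaks 956 were lost (61.3%), shares near those of the other chromosomes. No control library gives a background for these counts.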

How the results depend on the processing

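Covered length, summit position, a gap of 500 bp and -log10 q of at least 5 in both lists kept the gained, lost and kept counts within 1.5 times. Of D8 peaks with -log10 q of at least 5, 6069 had no D0 peak of any strength. Lost sites numbered 17248 with the D0 list shortened to the D8 number and 13177 when limited to the clear lost sites. Both settings leave out weak peaks by construction. The promoter share was 17.0% of gained, 14.7% of lost and 49.97% of kept D8 peaks with 2000 bp before and 1000 bp after a start, 7.56%, 6.64% and 37.2% with protein-coding starts only, and 9.40%, 8.25% and 39.7% by the summit rule. With -log10 q of at least 5 in both lists it was 8.94% of gained, 8.33% of lost and 45.3% of kept D8 peaks. Within 10 kb, 3616 genes had a gained and 9691 a lost site. By fold enrichment 327 kept pairs were 2-fold higher and 1533 lower at D8. Each motif kept the class in which it was most frequent under a 50 bp window, the summit rule and the stricter q. Motif shares, places and gene counts over the clear lost sites were added after the data were seen. No paired analysis was possible because each group has 1 library.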
